A study of Mus musculus with 6 samples.

Results

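Store-operated calcium entry and calcium store genes were followed in the mouse mammary carcinoma line 4T1 by the probe sets annotated to a single symbol among 10 genes chosen as calcium sensors, channels, store receptors and pumps upstream of the phosphatase calcineurin. Of the 10 genes, 9 were measured, by 25 of the 45037 probe sets in the table, while Itpr1 is not analysed here. The 9 genes stand among 18193 genes with a probe set of their own. The comparison is between 3 arrays of cells transduced with an NFAT1 shRNA vector and 3 arrays of cells transduced with a control shRNA vector. Cells of both groups were adherent cultures of the 4T1 line, harvested when selection had run for 10 days. The labelled cRNA of each sample was prepared with 200 ng of its RNA. The labels name neither the shRNA sequence nor the number of shRNAs, and leave unsaid whether replicate arrays had separate cultures behind them. The p-values thus rest on the spread between these samples alone, part or all of which may be technical.

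Store-operated calcium entry refills the endoplasmic reticulum and feeds calcium signals. When a receptor at the cell surface activates phospholipase C, the messenger IP3 opens IP3 receptors in the reticulum membrane and calcium leaves the store. STIM proteins sense the falling store and open ORAI channels of the plasma membrane, SERCA pumps return calcium to the store, and PMCA pumps expel it from the cell. The entering calcium activates calcineurin, which dephosphorylates NFAT1, the product of Nfatc2, and lets it enter the nucleus. The question put to the data was whether transcripts of these upstream parts differ in cells given an shRNA against the factor at the end of the chain.

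Values are log2 RMA signals, so a step of 1 is a doubling, and differences are NFAT1 shRNA minus control shRNA. Signals of different probe sets depend on their probes and are not compared as levels between genes. The array medians ran from 5.42 to 5.48, and dim probe sets near or below them are compressed by the method, so their differences can be understated. Nfatc2 was read by 6 probe sets, of which 4 had a lower and 2 a higher mean in NFAT1 shRNA cells, with differences from -0.76 to 0.35 and 0 past the limma test over all probe sets (adjusted p from 0.0707 to 0.785). The lowest p was that of 1439205_at, which read 5.15, 5.43 and 5.29 in NFAT1 shRNA cells and 6.05, 6.18 and 5.91 in control cells, with NFAT1 shRNA 1 the lowest of all. It passed with array weights (adjusted p = 0.032 with limma) and without NFAT1 shRNA 1 (0.016), while the other 5 probe sets of Nfatc2 passed in neither setting. The brightest Nfatc2 probe set, 1426032_at, went the other way, also without overlap. Its values were 6.19, 6.48 and 6.09 in NFAT1 shRNA cells and 5.92, 5.92 and 5.86 in control cells (adjusted p = 0.251 with limma). The groups are therefore named by their labels. Epithelial markers were read as a check of the cell type, and they do not tell a carcinoma from other epithelium. Of 8 such markers, 7 had a mean signal above 6. The summed linear signal of the 8 was 33000 to 36900 on the NFAT1 shRNA arrays and 33500 to 33800 on the control arrays. The basal keratin gene Krt14 was picked as the marker with the smallest p of the 8. It was lower on every NFAT1 shRNA array, at 7.46 to 9.38 against 10.38 to 10.67, without passing the test (adjusted p = 0.137 with limma). Krt14 passed with array weights (adjusted p = 0.0175 with limma) and without NFAT1 shRNA 1 (0.00695). Of 4 fibroblast, 3 leukocyte and 4 endothelial markers only Pdgfra, at a mean of 7.71 in NFAT1 shRNA cells and 7.23 in control cells, exceeded 6. The summed fibroblast signal was 181 to 418 on the NFAT1 shRNA arrays against 143 to 308 on the control arrays. The leukocyte sum was 63.0 to 74.7 against 60.9 to 67.9, the endothelial sum 96.1 to 116 against 90.6 to 95.1, and the part of these sums in the results below was not tested. In RNA of whole cultures, fewer cells expressing a gene and less of its RNA per cell cannot be told apart.

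No member probe set passed the limma test with Benjamini-Hochberg adjustment over all 45037 probe sets: 0 of 25 had an adjusted p under 0.05, where 0.200% of all probe sets did (0.0755% higher and 0.124% lower). At an unadjusted p under 0.05, 8 of the 25 were found, beside 15.7% of all probe sets. Of these 6 were higher, beside 8.03% of all, and 2 lower, beside 7.65% of all. The groups did not overlap for 7 of the 25, beside 20.9% of all. The mean was higher in NFAT1 shRNA cells for 15 member probe sets and lower for 10, and the median difference was 0.04, against 0.02 over all probe sets. The largest differences were those of the IP3 receptor gene Itpr2. All 6 probe sets of the SERCA gene Atp2a2 had a lower mean, while the STIM sensors and the PMCA gene Atp2b1 differed by no more than 0.29 on any probe set.

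The count of member calls moved with the handling of the arrays. NFAT1 shRNA 1 lay nearest to the control mean among the 3 NFAT1 shRNA arrays for 18 of the 25 member probe sets, and for 45.7% of all probe sets. The median absolute distance of the member probe sets from the control mean was 0.12 on NFAT1 shRNA 1, 0.46 on NFAT1 shRNA 2 and 0.36 on NFAT1 shRNA 3, and from 0.05 to 0.09 on the control arrays. Over all probe sets these distances were 0.13, 0.19 and 0.16 on the NFAT1 shRNA arrays, and from 0.05 to 0.09 on the controls. Among probe sets with a mean signal of at least 5 they were 0.12, 0.37 and 0.31 for the 20 member probe sets on NFAT1 shRNA 1, 2 and 3, and 0.14, 0.28 and 0.27 for all, so the members lay closer to the rest there. Without NFAT1 shRNA 1, 12 of the 25 member probe sets passed, beside 12.9% of all probe sets. Of these 6 were higher, beside 6.23% of all, and 6 lower, beside 6.63% of all. With any other single array left out, 0 of the 25 passed. NFAT1 shRNA 1 was nearest to the controls for most members, so its removal tends by itself to enlarge their differences. Calls made without NFAT1 shRNA 1, here and below, are therefore no separate support for a difference. With 1 probe set per gene and without that array, 5 of 9 member genes passed, beside 18.4% of all genes, and among probe sets with a mean signal of at least 5, 9 of 20 passed, beside 23.1%. These 5 genes were Itpr2, Itpr3, Orai2, Orai1 and Atp2a2, and probe sets of a gene are not independent of each other. With control shRNA 3 left out as well, 0 of 25 and 0 of 45037 probe sets passed. At an unadjusted p under 0.05 there were 13 of the 25, beside 9273 of the 45037. Control shRNA 3 lay between the other controls for 14 of the 25 member probe sets and for 49.2% of all. Which arrays represent their group could not be told from the labels.

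**Figure D1:**
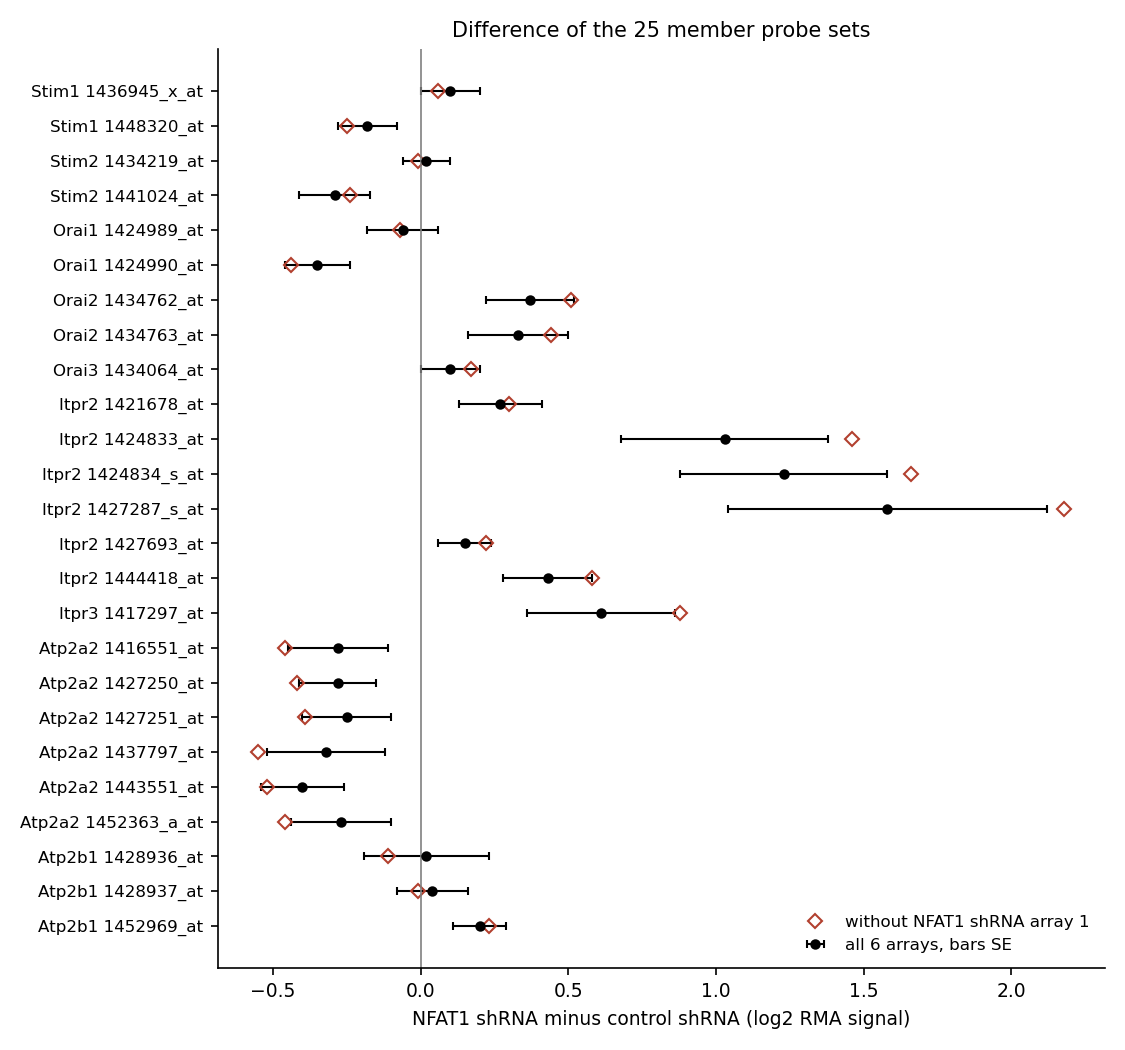
Difference of each of the 25 member probe sets, NFAT1 shRNA minus control shRNA on the log2 scale, with all 6 arrays (black, bars SE) and without NFAT1 shRNA array 1 (open diamonds). Itpr2 1427287_s_at lies farthest from 0, at 1.58 and 2.18, and all 6 Atp2a2 probe sets lie below 0.

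STIM1 is the main sensor of the reticulum's calcium and STIM2 a paralog that responds to smaller losses. On 1448320_at, the brighter of 2 probe sets, Stim1 read 7.42, 7.18 and 7.25 on the NFAT1 shRNA arrays and 7.47, 7.39 and 7.53 on the control arrays. NFAT1 shRNA 2 and 3 were below every control and NFAT1 shRNA 1 was within their range. The difference was -0.18 ± 0.10 (SE; 95% interval -0.41 to 0.05; adjusted p = 0.393 with limma). On 1436945_x_at, whose suffix marks probes that may also bind other transcripts, the sign was the opposite, at 0.10, with overlapping groups. Stim2 read 9.67, 9.62 and 9.55 in NFAT1 shRNA cells and 9.57, 9.65 and 9.57 in control cells on 1434219_at. The arrays of both groups were intermixed, with a difference of 0.02 (95% interval -0.17 to 0.21; adjusted p = 0.904 with limma). On 1441024_at, which lay near the array medians, Stim2 differed by -0.29 ± 0.12 (SE), and the lowest control, 5.74, met the highest NFAT1 shRNA array, also 5.74 (adjusted p = 0.326 with limma).

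ORAI1 forms the pore of the classical store-operated channel, and ORAI2 and ORAI3 are its paralogs, which can join it in mixed channels. Orai1 read 7.03, 6.68 and 6.79 on the NFAT1 shRNA arrays and 7.28, 7.09 and 7.17 on the control arrays, on 1424990_at. All 3 NFAT1 shRNA arrays were below the lowest control, NFAT1 shRNA 1 by the least. The difference was -0.35 ± 0.11 (SE), a signal of 78.7% of control (adjusted p = 0.256 with limma; 0.0377 without NFAT1 shRNA 1 and from 0.0377 to 0.580 over all settings tried). Such ranges leave out the settings that join the removal of NFAT1 shRNA 1 to a signal minimum or to 1 probe set per gene. The other Orai1 probe set, 1424989_at, was dim, with means of 4.02 in NFAT1 shRNA cells and 4.09 in control cells, and its groups overlapped.

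Orai2 stood on the other side of the controls. It read 5.66, 6.22 and 5.92 in NFAT1 shRNA cells and 5.45, 5.67 and 5.57 in control cells on 1434762_at, where NFAT1 shRNA 1 lay just under the highest control. The difference was 0.37 ± 0.15 (SE; adjusted p = 0.312 with limma; 0.0487 without NFAT1 shRNA 1 and from 0.0487 to 0.619 over all settings tried). On 1434763_at it read 5.11, 5.71 and 5.17 in NFAT1 shRNA cells and 5.0, 5.10 and 4.89 in control cells, without overlap, although the lowest NFAT1 shRNA array and the highest control nearly met. Both Orai2 probe sets lay near or below the array medians. Orai3 read 6.94, 7.21 and 7.08 in NFAT1 shRNA cells and 6.91, 7.01 and 6.99 in control cells. Its groups overlapped, with a difference of 0.10 ± 0.10 (SE; 95% interval -0.13 to 0.33; adjusted p = 0.611 with limma).

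**Figure D2:**
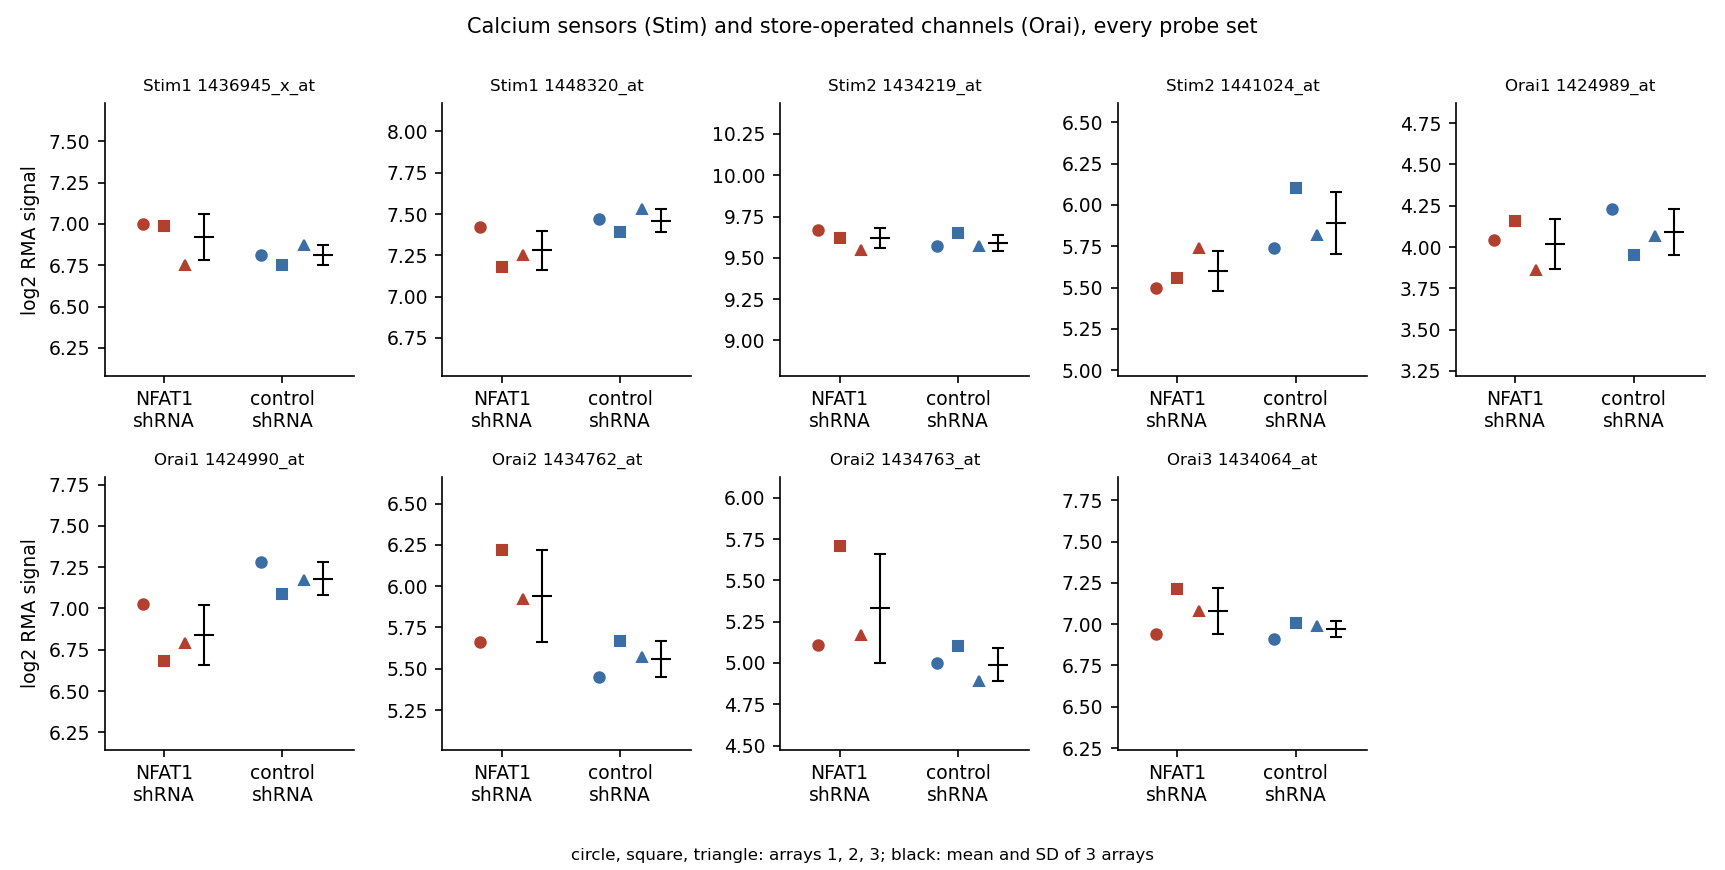
Log2 RMA signal of every Stim and Orai probe set on each array, with NFAT1 shRNA arrays in red left of control arrays in blue, and the mean and SD of 3 arrays in black. The vertical axes do not start at 0. Orai1 1424990_at is lower on all 3 NFAT1 shRNA arrays, at 6.68 to 7.03 against 7.09 to 7.28, while Stim2 1434219_at is intermixed.

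The upstream sequences of the Orai genes and of Itpr2 are shown because NFAT factors bind DNA at a core of the letters GGAAA, and these 4 genes include those with differences in opposite directions. They are the 250 bases before the annotated start, from RefSeq on build GRCm38.p6, written 5′ to 3′ on the gene's strand, with each GGAAA, or TTTCC where the core is on the other strand, in capitals. Orai1 is at chr5:123014824-123015073 on the plus strand, Orai2 at chr5:136170657-136170906 on the minus strand, Orai3 at chr7:127769565-127769814 on the plus strand and Itpr2 at chr6:146502224-146502473 on the minus strand.
Orai1: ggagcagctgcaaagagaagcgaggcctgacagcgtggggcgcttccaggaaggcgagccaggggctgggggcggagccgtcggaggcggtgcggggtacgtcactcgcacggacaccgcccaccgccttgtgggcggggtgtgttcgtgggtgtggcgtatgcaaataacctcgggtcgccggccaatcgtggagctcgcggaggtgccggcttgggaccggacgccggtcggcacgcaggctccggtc
Orai2: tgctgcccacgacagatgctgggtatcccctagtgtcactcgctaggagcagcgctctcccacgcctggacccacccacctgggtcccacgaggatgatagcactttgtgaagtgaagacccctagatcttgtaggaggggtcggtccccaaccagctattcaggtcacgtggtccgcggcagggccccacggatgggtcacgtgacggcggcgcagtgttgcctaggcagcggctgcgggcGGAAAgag
Orai3: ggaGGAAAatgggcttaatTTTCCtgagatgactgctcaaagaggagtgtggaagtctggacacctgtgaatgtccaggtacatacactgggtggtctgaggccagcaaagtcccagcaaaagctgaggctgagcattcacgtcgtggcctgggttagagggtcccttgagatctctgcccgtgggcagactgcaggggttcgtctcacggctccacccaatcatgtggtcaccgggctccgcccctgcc
Itpr2: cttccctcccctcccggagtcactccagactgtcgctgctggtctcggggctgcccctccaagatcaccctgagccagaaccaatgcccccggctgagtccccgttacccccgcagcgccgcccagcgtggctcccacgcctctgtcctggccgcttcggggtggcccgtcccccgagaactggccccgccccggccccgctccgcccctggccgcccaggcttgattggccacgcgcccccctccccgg
Of the 10 member genes, 8 had a matched sequence, with 9 starts in all. GGAAA on either strand was found in the windows of 3 genes, Orai2 (1 match, beginning 8 bases before the start), Orai3 (2 matches, beginning 247 and 231 bases before it) and Atp2b1 (1 match in 1 of its 2 windows). It was absent from the windows of Orai1, Itpr2, Itpr3, Stim1 and Stim2. Of all 32851 promoter windows of this length, 55.6% held the core. The member windows were rich in G and C, at 57.2% to 80.8% against a median of 52.4% over all windows, and GGGCGG on either strand, the letters bound by SP1-type factors, was in all 9 against 32.7% of all windows. CCAAT on either strand was in 4 of the 9 against 33.8% of all windows. A match describes letters and does not show binding, and its absence says nothing of sites elsewhere.

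IP3 receptors release calcium from the reticulum, and ITPR2 is the type most sensitive to IP3. Itpr2 had a higher mean in NFAT1 shRNA cells on all 6 of its probe sets, by 0.15 to 1.58. On 1427287_s_at, the brightest of them, it read 6.25, 8.14 and 7.98 on the NFAT1 shRNA arrays and 5.23, 6.44 and 5.95 on the control arrays. NFAT1 shRNA 2 and 3 were above every control, and NFAT1 shRNA 1 lay between control shRNA 3 and control shRNA 2. The means were 7.45 ± 1.05 in NFAT1 shRNA cells and 5.88 ± 0.61 in control cells (SD, n = 3 each), a 2.99-fold difference that did not pass (adjusted p = 0.264 with limma). Its 95% interval on the log2 scale was 0.29 to 2.87.

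On 2 other probe sets of Itpr2 with large differences NFAT1 shRNA 1 stood above the controls by a small margin. On 1424834_s_at it read 5.84, 6.98 and 7.24 in NFAT1 shRNA cells and 5.35, 5.68 and 5.35 in control cells, a difference of 1.23 ± 0.35 (SE; adjusted p = 0.213 with limma). The probe set 1424833_at was dim, with means of 5.02 in NFAT1 shRNA cells and 3.98 in control cells, below the array medians. There Itpr2 read 4.15, 5.36 and 5.53 in NFAT1 shRNA cells and 3.73, 4.12 and 4.10 in control cells, a difference of 1.03 ± 0.35 (SE; adjusted p = 0.264 with limma). NFAT1 shRNA 2 and 3 were farther above the controls on both. The probe set 1444418_at, dim as well, did not overlap either, with a difference of 0.43. On 1421678_at and 1427693_at the differences were 0.27 and 0.15, and the groups overlapped. The suffix _s_at marks probe sets that can read more than 1 transcript, and the position of each probe set in the transcript was not analysed here.

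Itpr2 held 4 of the 8 member probe sets with an unadjusted p under 0.05, and it passed in some settings. With array weights, which gave NFAT1 shRNA 1 the lowest weight (0.368) and control shRNA 3 the highest (5.01), the probe sets 1427287_s_at, 1424834_s_at and 1424833_at passed, with differences of 1.84, 1.46 and 1.14 (adjusted p = 0.0489, 0.0272 and 0.0473 with limma). In that setting 5.06% of all probe sets passed. Without NFAT1 shRNA 1 their differences were 2.18, 1.66 and 1.46 (adjusted p = 0.0128, 0.00605 and 0.00695 with limma). Over all settings tried, the adjusted p of 1427287_s_at ran from 0.0128 to 0.584, that of 1424834_s_at from 0.00605 to 0.535 and that of 1424833_at from 0.00695 to 0.581.

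Itpr3, the IP3 receptor type often prominent in epithelial cells, was read by 1 probe set. It had 9.67, 10.53 and 10.45 on the NFAT1 shRNA arrays and 9.34, 9.86 and 9.62 on the control arrays. NFAT1 shRNA 2 and 3 were again above every control, and NFAT1 shRNA 1 lay within the control range. The difference of 0.61 ± 0.25 (SE), or 1.53-fold, did not pass (adjusted p = 0.314 with limma; 0.0201 without NFAT1 shRNA 1 and from 0.0201 to 0.627 over all settings tried). The control arrays of Itpr3 and of Itpr2 1427287_s_at had the same order, with control shRNA 1 lowest and control shRNA 2 highest. The NFAT1 shRNA arrays had that order too, with NFAT1 shRNA 1 lowest and NFAT1 shRNA 2 highest. On both probe sets each NFAT1 shRNA array, NFAT1 shRNA 1 included, was above the control array of its number. The labels do not pair arrays by number.

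**Figure D3:**
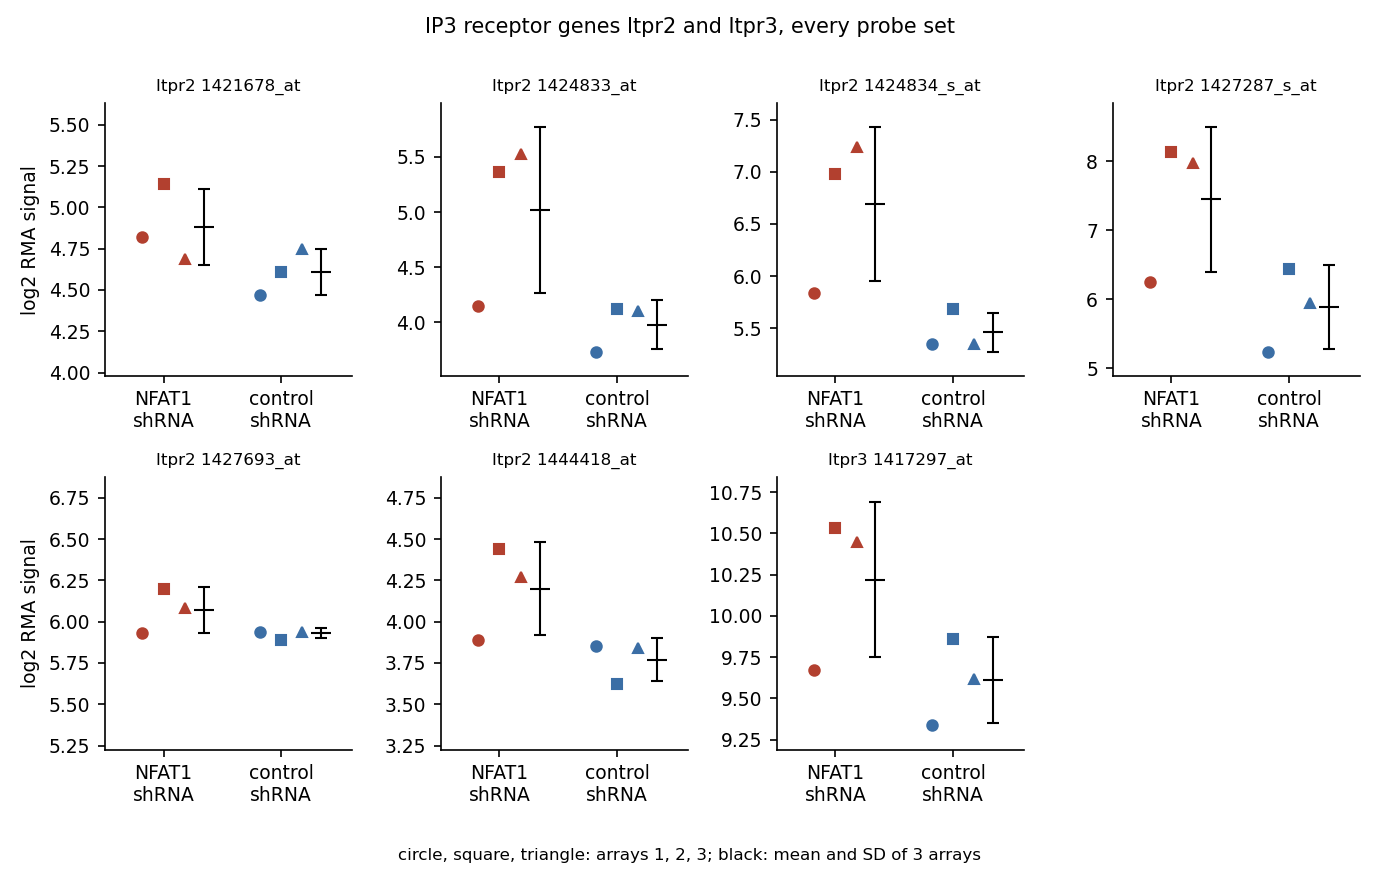
Log2 RMA signal of the 6 Itpr2 probe sets and the Itpr3 probe set on each array, with NFAT1 shRNA arrays in red left of control arrays in blue, and the mean and SD of 3 arrays in black; the axes do not start at 0. On Itpr2 1427287_s_at the squares and triangles of the NFAT1 shRNA arrays, at 8.14 and 7.98, stand above the controls and the circle, at 6.25, is among them.

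Atp2a2 encodes SERCA2, whose widely expressed form pumps calcium back into the reticulum. In NFAT1 shRNA cells all 6 of its probe sets had a lower mean, by differences of -0.40 to -0.25. On 1427250_at, its brightest probe set, it read 12.51, 12.12 and 12.04 in NFAT1 shRNA cells and 12.54, 12.45 and 12.52 in control cells. NFAT1 shRNA 1 was among the controls and the other NFAT1 shRNA arrays were below them. The difference was -0.28 ± 0.13 (SE), a signal of 82.2% of control (adjusted p = 0.354 with limma). On 1416551_at the NFAT1 shRNA arrays read 10.28, 9.83 and 9.63 and the control arrays 10.23, 10.10 and 10.24. On 1437797_at they read 7.56, 6.84 and 6.89 against 7.44, 7.35 and 7.47 on the control arrays. NFAT1 shRNA 1 exceeded the highest control on both, and again on 1452363_a_at and 1427251_at, where it read 8.52 and 7.71 against highest controls of 8.46 and 7.70. Only the dim probe set 1443551_at had no overlap, at 3.63 to 4.12 in NFAT1 shRNA cells and 4.17 to 4.38 in control cells (adjusted p = 0.264 with limma). Without NFAT1 shRNA 1, 5 of the 6 probe sets passed with differences of -0.55 to -0.42, and 1427251_at did not (adjusted p = 0.0654 with limma, and from 0.0654 to 0.777 over all settings tried). The 6 probe sets read 1 gene in the same 6 samples, so they repeat the measurement without adding samples.

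Atp2b1 encodes PMCA1, the housekeeping calcium pump of the plasma membrane. On 1428937_at it read 10.38, 10.34 and 10.09 in NFAT1 shRNA cells and 10.09, 10.36 and 10.23 in control cells, an intermixed order with a difference of 0.04 (95% interval -0.24 to 0.32; adjusted p = 0.877 with limma). On 1428936_at array 3 was the lowest of both groups, at 9.18 in NFAT1 shRNA cells and 9.26 in control cells, and the difference was 0.02. On 1452969_at the values were 9.06, 9.24 and 9.06 in NFAT1 shRNA cells and 8.91, 8.89 and 8.95 in control cells. These groups did not overlap, and the difference of 0.20 ± 0.09 (SE) did not pass (adjusted p = 0.322 with limma, and from 0.144 to 0.616 over all settings tried).

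**Figure D4:**
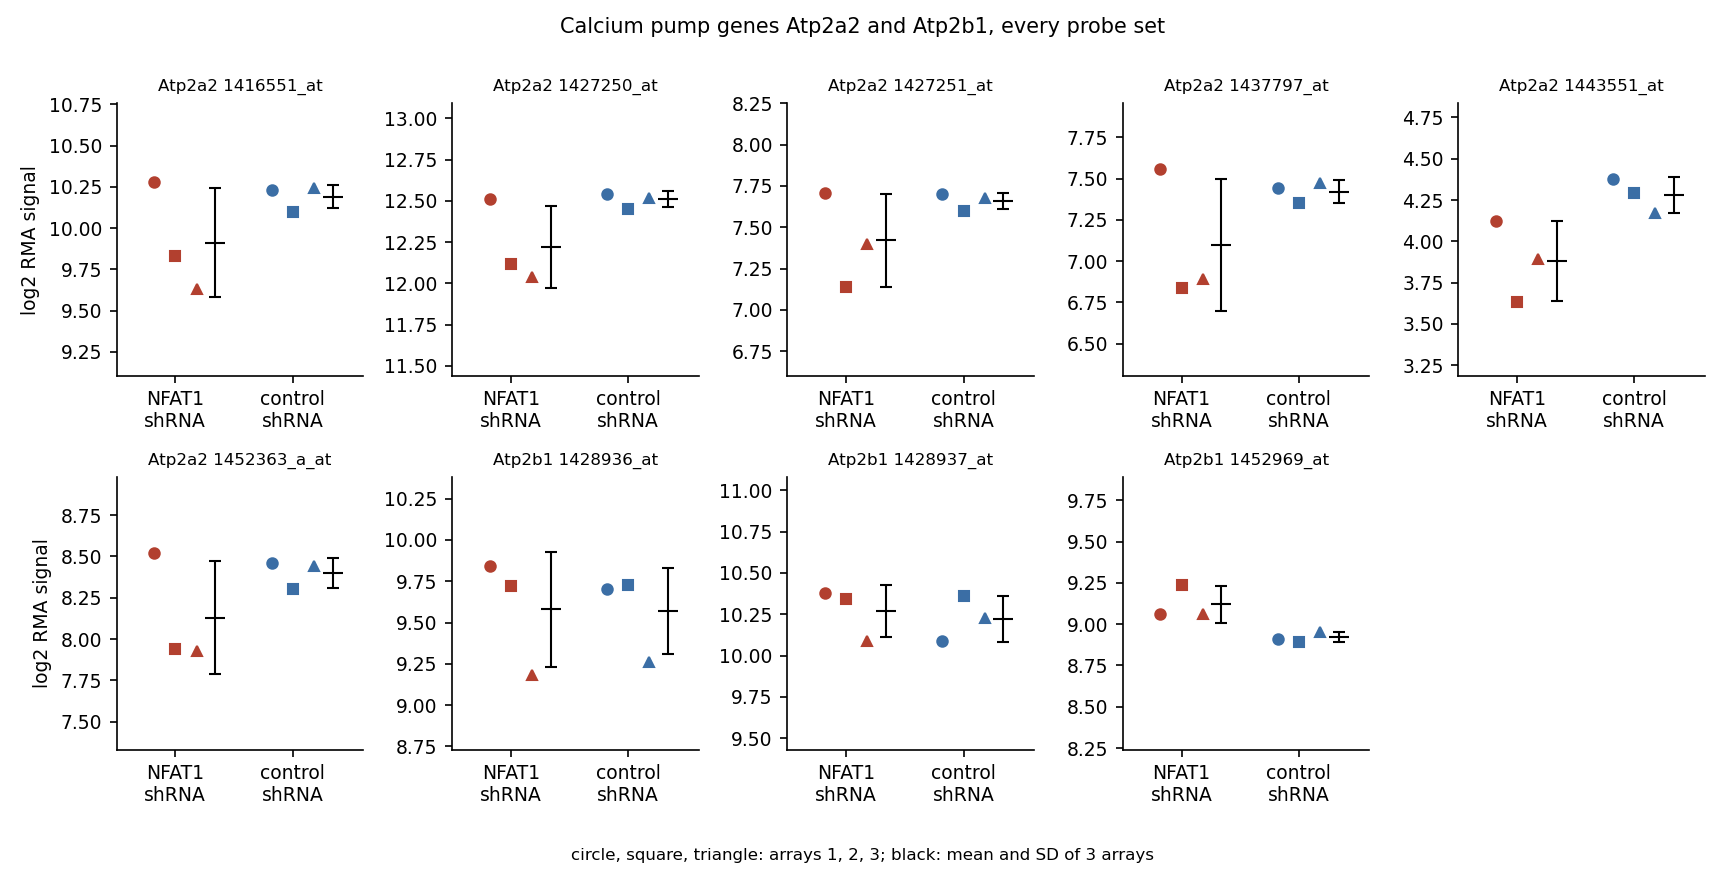
Log2 RMA signal of the 6 Atp2a2 and 3 Atp2b1 probe sets on each array, with NFAT1 shRNA arrays in red left of control arrays in blue, and the mean and SD of 3 arrays in black; the axes do not start at 0. On Atp2a2 1427250_at the NFAT1 shRNA circle, at 12.51, lies with the controls at 12.45 to 12.54, and the square and triangle lie at 12.12 and 12.04.

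The probe sets most like Stim1 and Orai1 across the 6 arrays were sought among named probe sets with a mean signal of at least 6 and a range of at least 0.5. The pattern of Stim1 1448320_at was matched most closely by Gpr89 (r = 0.99), Ints7 (r = 0.989) and Foxred1 (r = 0.988), and that of Orai1 1424990_at by Mpv17l2, Sod2 (r = 0.999) and Fam118b (r = 0.998). These are descriptions over 6 arrays that share their group and any array effect, and 1483 of 10129 probe sets had r of at least 0.9 with Stim1 and 1820 of 10128 with Orai1.

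The rest of the calcium pathway was described with 6 lists holding 117 measured genes, each by its brightest probe set. With limma 0 of the 117 passed over all probe sets, beside 0.302% of all genes. At an unadjusted p under 0.05 there were 22, beside 17.5% of all genes, with 11 higher and 11 lower, beside 10.3% and 7.13% of all genes. The groups did not overlap for 22 of the 117, beside 22.8% of all genes. The median difference of the 117 genes was 0.02, against 0.04 over all genes.

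Of 33 entry regulators and other channels, 0 passed, and the median difference was 0.02. At an unadjusted p under 0.05, 3 were higher and 6 lower, beside 10.3% and 7.13% of all genes. Saraf, whose product switches store-operated entry off by acting on STIM1, read 9.46, 10.00 and 9.97 in NFAT1 shRNA cells and 9.43, 9.53 and 9.54 in control cells (adjusted p = 0.374 with limma). NFAT1 shRNA 1 was within the controls and the other arrays were above them, as for Itpr3 and the brightest Itpr2 probe set. Cracr2b, which encodes an EF-hand regulator of the ORAI channel, differed by 0.39 (adjusted p = 0.485). Without NFAT1 shRNA 1 both passed (adjusted p = 0.0224 for Saraf and 0.029 for Cracr2b with limma). Trpc1, a cation channel that can take part in calcium entry, read 6.25, 6.26 and 6.89 in NFAT1 shRNA cells and 7.24, 7.51 and 7.34 in control cells, with all 3 arrays below the controls and a difference of -0.90 ± 0.19 (SE; adjusted p = 0.142 with limma). Trpc1 passed without NFAT1 shRNA 3 (adjusted p = 0.0480) and without NFAT1 shRNA 1 (0.0457), and ran from 0.0312 to 0.478 over all settings tried. Septin2, which was picked after its values were seen and encodes a septin of the kind that organises STIM and ORAI contacts, had the smallest p of the list. It read 9.85, 9.72 and 10.05 in NFAT1 shRNA cells and 10.64, 10.59 and 10.61 in control cells, a difference of -0.74 ± 0.10 (SE; adjusted p = 0.0643 with limma). Adjusted over genes with 1 probe set each, Septin2 passed (0.0474), and it ran from 0.0157 to 0.371 over all settings tried. The ryanodine receptor gene Ryr1 was dim, at 4.02 in NFAT1 shRNA cells and 4.43 in control cells.

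Of 18 other pumps and exchangers 0 passed, with a median difference of 0.06. At an unadjusted p under 0.05, 0 were higher and 3 lower, beside 10.3% and 7.13% of all genes. Atp2c1, the calcium and manganese pump of the Golgi, read 9.0, 8.90 and 8.86 in NFAT1 shRNA cells and 9.16, 9.08 and 9.20 in control cells, without overlap (difference -0.23, adjusted p = 0.282 with limma). Atp2a3 and Atp2b4, paralogs of the SERCA and PMCA members, had means of 5.63 and 3.59 in NFAT1 shRNA cells and 5.47 and 3.44 in control cells, near or below the array medians. Tmem165, a Golgi cation transporter picked as the gene with the smallest p of this list, differed by -0.26 (adjusted p = 0.280).

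Of 27 genes of IP3 production and IP3 receptor regulation 0 passed, with a median difference of 0.04. At an unadjusted p under 0.05, 4 were higher and 0 lower, beside 10.3% and 7.13% of all genes. Plcg2, a phospholipase C that makes IP3 and was picked after its values were seen, read 9.97, 11.39 and 11.16 in NFAT1 shRNA cells and 9.47, 10.05 and 9.81 in control cells. Its arrays had the same layout as those of Itpr3, and the difference of 1.06 ± 0.37 (SE) did not pass (adjusted p = 0.267 with limma, and from 0.00848 without NFAT1 shRNA 1 to 0.584 over all settings tried). Plcg1, its widely expressed paralog, differed by 0.27 (adjusted p = 0.563). Erlin2, which takes part in the degradation of activated IP3 receptors, read 9.36, 9.55 and 9.41 in NFAT1 shRNA cells and 9.09, 9.17 and 9.10 in control cells, with no overlap (difference 0.32, adjusted p = 0.197, and from 0.0492 to 0.532 over all settings tried). Ahcyl1, which binds IP3 receptors and competes with IP3, differed by -0.18 with overlapping groups. Plce1, picked as the gene with the smallest p of this list, differed by 0.71 (adjusted p = 0.0933 with limma, and from 0.00706 without NFAT1 shRNA 1 to 0.428 over all settings tried). Its means were 4.79 in NFAT1 shRNA cells and 4.07 in control cells, below the array medians.

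Of 18 genes listed mainly for calcium-binding proteins of the reticulum lumen 0 passed, with a median difference of -0.06. At an unadjusted p under 0.05, 2 were higher and 1 lower, beside 10.3% and 7.13% of all genes. Calr, which encodes the main calcium buffer calreticulin, read 12.74, 12.19 and 11.93 in NFAT1 shRNA cells and 12.74, 12.61 and 12.68 in control cells. It had the layout of Atp2a2, with NFAT1 shRNA 1 at the level of the highest control (difference -0.39, adjusted p = 0.383 with limma, 0.0214 without that array and up to 0.660 over all settings tried). Hsp90b1, the calcium-binding chaperone GRP94, read 12.23, 11.99 and 11.99 in NFAT1 shRNA cells and 12.32, 12.58 and 12.28 in control cells, without overlap (difference -0.33, adjusted p = 0.282). Sdf4, a calcium-binding protein of the Golgi lumen, differed by 0.04. Casq1, picked as the gene with the smallest p of this list, differed by 0.30 (adjusted p = 0.239) at means of 5.07 in NFAT1 shRNA cells and 4.77 in control cells.

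Of 14 mitochondrial calcium transport genes 0 passed, with a median difference of 0.02. At an unadjusted p under 0.05, 1 was higher and 1 lower, beside 10.3% and 7.13% of all genes. Mcu, the pore of the mitochondrial uniporter, differed by 0.08 with overlapping groups, and Vdac1, the outer membrane channel, had a mean of 12.11 in both groups. Micu2, a gatekeeper of the uniporter picked as the gene with the smallest p of the list, read 9.97, 10.19 and 10.39 in NFAT1 shRNA cells and 9.65, 9.63 and 9.75 in control cells (difference 0.51, adjusted p = 0.171 with limma, and from 0.0170 to 0.492 over all settings tried). Of 8 measured calmodulin-dependent kinase genes 0 passed, with a median difference of 0.11. At an unadjusted p under 0.05, 1 was higher and 0 lower, beside 10.3% and 7.13% of all genes. The higher gene was Camk1, picked for that reason. It read 7.98, 9.17 and 9.42 in NFAT1 shRNA cells and 7.72, 8.13 and 7.82 in control cells (adjusted p = 0.289 with limma, and from 0.00706 to 0.588 over all settings tried).

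**Figure D5:**
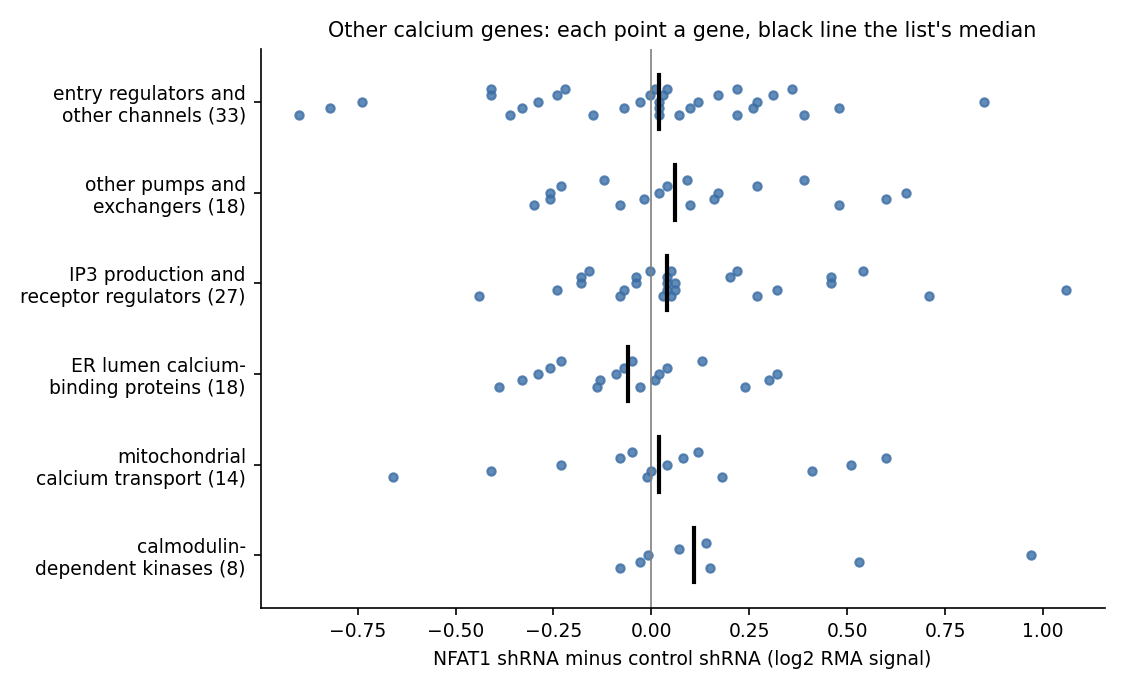
Difference of each gene of 6 calcium lists, NFAT1 shRNA minus control shRNA on the log2 scale, each gene by its brightest probe set, with the number of genes in brackets and the list's median as a black line. The medians lie between -0.06 and 0.11, and Plcg2 at 1.06 and Trpc1 at -0.90 are the extremes.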

How the data were processed

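Affymetrix mouse arrays measured RNA of 6 samples of 4T1 cells, 3 with NFAT1 shRNA and 3 with control shRNA, grouped and numbered by the labels. The deposited values are log2 signals made by the authors with RMA, per the submitters' processing notes, in a version not given in the sources used here. RMA corrects background, equalises the distributions of the arrays and combines the probes of each probe set, so a shift of most transcripts would be hidden. Values ran from 1.80 to 14.22. Precision is limited by the number of arrays.

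Of 45037 probe sets, 34945 were annotated to 1 symbol, 932 to several and 9160 to none here. By gene number, 34741 of the first kind matched the GRCm38.p6 gene table, with 0 differing symbols. All probe sets were fitted with limma 3.58.1 (lmFit, eBayes; R 4.3.3) without filter or covariates. The p-values are 2-sided and adjusted by Benjamini-Hochberg, with a call at an adjusted p under 0.05, and intervals are limma's 95% intervals. A list gene is read by its probe set with the highest mean. Counts and sequence matches used Python 3.11.15 and pandas 2.3.3. The members and lists were chosen with earlier results of these data known. Named genes were the members, Nfatc2, 15 measured pathway genes whatever their values, and the 3 patterns nearest to Stim1 and to Orai1. The text says where others were added. The fit was tested on simulated data first, with 200 probe sets changed. It recovered 10% of simulated log2 differences of 0.5, 66% of those of 1, 62% of those of -1 and 86% of those of 2. There were 4 false calls. Only 16.0% of the member probe sets differed by 0.5 or more, so a member that did not pass may still differ.

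The alternatives were a mean signal of at least 5, subtracted array medians, repeated quantile normalization, a trended robust prior, array weights, a block for the replicate number, each array left out, 1 probe set per gene, and no probe sets ending in _x_at, _s_at or _a_at. Settings that joined the removal of NFAT1 shRNA 1 to another choice were added after the data were seen.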

Additional observations from a re-analysis of the deposited data

How the results depend on the processing

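The count of member probe sets past the test was 0 in the settings tried, except for 3 with array weights, 2 with a block for the replicate number (3.18% of all probe sets passed there), and 0 to 12 when each array was left out (12 without NFAT1 shRNA 1, 0 without any other array); with that array out, it was 5 of 9 with 1 probe set per gene and 9 of 20 at a mean signal of at least 5. Over all probe sets the count was 90, against 2279 with array weights, 1432 with the block, 0 without NFAT1 shRNA 1 and control shRNA 3 together, and 0 to 5794 when each array was left out. It was 0 with limma without NFAT1 shRNA 2, control shRNA 1, control shRNA 2 or control shRNA 3, where 4290, 3992, 5086 and 4251 had an unadjusted p under 0.05. Of the 117 pathway genes 0 passed, against 9 with array weights, 5 with the block and 1 with 1 probe set per gene (Septin2). The count was 0 to 24 when each array was left out, with 24 without NFAT1 shRNA 1, and the 1 without NFAT1 shRNA 3 was Trpc1. Beside these, 5.06% of all probe sets passed with array weights, 3.18% with the block and 12.9% without NFAT1 shRNA 1. With 1 probe set per gene and without that array, 18.4% of all genes passed, the share that belongs beside the 5 of 9 member genes. The 24 pathway genes were called with adjustment over all probe sets, so they are not set against that share. The replicate numbers do not pair the samples by the labels. Deviations of same-numbered arrays correlated at 0.619, 0.513 and 0.0508, the last under the 0.1 needed. NFAT1 shRNA 1 correlated at -0.58 with control shRNA 2, and NFAT1 shRNA 2 at -0.521 with control shRNA 1. NFAT1 shRNA 3 correlated better with control shRNA 2 (0.269) than with control shRNA 3. Control shRNA 3 deviated little (median absolute distance 0.05, against 0.08 and 0.09 for control shRNA 1 and 2), so its correlations say little. Any spread shared by same-numbered arrays counts as noise in the fit without the block. Under the block Itpr2 1427287_s_at and 1424833_at were the 2 member calls (adjusted p = 0.0187 and 0.0494), and Nfatc2 1439205_at passed too (0.0228).

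Of 57 single differences, 745 of 809 alternative values kept their direction and side of the threshold, 47 passed where the reported value did not (24 of them without NFAT1 shRNA 1) and 17 had the other sign, none of them past the threshold. The sign turned for Atp2b1 1428936_at with array medians subtracted (-0.00406) and without NFAT1 shRNA 1 and control shRNA 3 (-0.27), as it did without those arrays for Stim2 1434219_at (-0.02) and Atp2b1 1428937_at (-0.00931), and for Vdac1 with repeated quantile normalization (0.04). Leaving out each array gave -0.00521 to 0.06 for Stim2 1434219_at, -0.13 to 0.01 for Orai1 1424989_at, -0.14 to 0.21 for Atp2b1 1428936_at, -0.02 to 0.13 for Atp2b1 1428937_at, -0.000156 to 0.08 for Nfatc2 1425901_at and -0.03 to 0.03 for Vdac1. The cause of these changes was not tested. Of the 25 member probe sets only 20 had a mean signal of at least 5, and RMA compresses the differences of dimmer ones.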

Other observations

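Of the 117 pathway genes, 22 had groups without overlap, beside 22.8% of all genes, and 0 passed the limma test. The 4 described here are among the 22 and were picked after their values were seen. Tpcn1, a calcium channel of endosomes and lysosomes, read 8.53, 9.46 and 8.83 in NFAT1 shRNA cells and 7.82, 8.34 and 8.10 in control cells, a difference of 0.85 ± 0.25 (SE; adjusted p = 0.224, and from 0.0242 to 0.555 over all settings tried). Cav1, which encodes the caveolar coat protein caveolin-1, read 9.68, 9.11 and 10.09 in NFAT1 shRNA cells and 10.41, 10.42 and 10.52 in control cells, a difference of -0.82 ± 0.23 (SE; adjusted p = 0.212, and from 0.0432 to 0.522 over all settings tried).

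Esyt1, which encodes a tether between the endoplasmic reticulum and the plasma membrane, read 8.50, 8.52 and 8.70 in NFAT1 shRNA cells and 8.84, 8.89 and 8.85 in control cells (difference -0.29, adjusted p = 0.237). Micu3, a paralog of the gatekeeper genes of the mitochondrial uniporter, read 6.63, 6.52 and 6.37 in NFAT1 shRNA cells and 6.89, 7.02 and 6.84 in control cells (difference -0.41, adjusted p = 0.181 with limma, and from 0.034 to 0.486 over all settings tried). That NFAT1 shRNA 1 lay outside the control range in these 4 genes follows from picking them among genes without overlap.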
